A study of Mus musculus with 16 samples.

Results

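NONMMUT003114.2 is a long non-coding transcript of mouse liver, listed on chromosome 1 (GRCm38) over a stretch of 5657 bases that begins 151 bases after position 151138034, and it was selected by its higher FPKM on high-fat feed than on ordinary feed. All listed transcripts whose interval overlaps that stretch are described with it, which gave 7 of 51024. The authors' unit is FPKM, the fragments of a transcript per kb of its length and per mega-fragment of its library. Fragments are called reads here. The data come from 16 libraries of liver RNA of C57BL/6J mice, with 4 libraries in each of 4 groups. One group received ordinary feed and another high-fat feed. The other two received high-fat feed with a drug by gavage, which was resveratrol at 100 mg/kg per day or metformin at 200 mg/kg per day. Metformin is used to lower blood glucose, and resveratrol is a polyphenol made by plants. The labels give postnatal day 21 as the age for all groups and do not say to which step it refers.

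Long non-coding RNAs are transcripts that are not translated into long proteins. Many are spliced and polyadenylated like messenger RNAs, and some act on the gene they lie beside while others act elsewhere in the cell or have no known role. In liver, levels of many such RNAs differ with feeding and lipid load. NONCODE is a catalogue that collects such transcripts from many sources, and it often lists several overlapping models of 1 locus.

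The stretch was proposed as intergenic, and the annotation goes against that word. It lies in C730036E19Rik, which GENCODE M21 lists as a lincRNA (a long non-coding RNA gene between coding genes) on the plus strand, chromosome 1, 151138034 to 151142345, with 5 exons. RefSeq (GRCm38.p6) lists the same gene as a non-coding RNA with a later end, 151144095. RefSeq also lists a non-coding gene on the minus strand, Gm36139, from 151074460 to 151155246, which spans the whole of C730036E19Rik. No function of either gene is assumed here. No coding gene overlaps the stretch. The nearest in GENCODE before it is Hmcn1, which encodes the extracellular matrix protein hemicentin and lies 144.75 kb away. After it come Gm47985 at 38.696 kb, 3110040M04Rik at 60.28 kb and Ivns1abp, which encodes a kelch-domain protein, at 200.636 kb. The locus is therefore intergenic with respect to coding genes, and is called the C730036E19Rik locus here.

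The start of the gene and the listed start of NONMMUT003114.2 are shown because the listed intervals differ in where they begin. For NONCODE transcripts, start and begin refer here to the lower coordinate of the listed interval. Their strand was not used, and on the minus strand that coordinate would be the end of the transcript. The promoter window is from RefSeq (GRCm38.p6), plus strand, chr1:151137784-151138083, and its capitals mark the 50 bases from the annotated start onward. The second sequence is the plus strand of the GENCODE M21 first exon around the listed start of NONMMUT003114.2, chr1:151138125-151138244, with capitals from that start onward. The third is the GENCODE transcript across the junction of exons 1 and 2, with exon 2 in capitals.
promoter: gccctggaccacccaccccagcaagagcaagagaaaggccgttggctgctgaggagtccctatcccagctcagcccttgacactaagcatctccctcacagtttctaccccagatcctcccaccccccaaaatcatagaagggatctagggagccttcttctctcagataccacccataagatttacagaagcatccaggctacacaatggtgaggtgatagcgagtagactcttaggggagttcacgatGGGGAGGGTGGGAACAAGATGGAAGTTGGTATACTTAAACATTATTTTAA
start of NONMMUT003114.2: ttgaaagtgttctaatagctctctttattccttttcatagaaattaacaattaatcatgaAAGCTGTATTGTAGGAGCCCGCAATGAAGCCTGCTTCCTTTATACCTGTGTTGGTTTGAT
junction of exons 1 and 2: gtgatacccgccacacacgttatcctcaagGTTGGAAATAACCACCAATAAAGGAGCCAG

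By its listed interval, NONMMUT003114.2 begins 151 bases after the annotated start of the gene, at a position within exon 1. Its listed length of 5062 bases leaves out only 595 of the 5657 bases of its interval, so it holds most of the introns of the GENCODE model. The promoter window has a GC content of 50.7%, and part of it lies in the pseudogene Gm8941 as RefSeq draws it, 151136368 to 151137963. None of 6 short motifs was found in the window on either strand. Over 32544 RefSeq promoter windows of the same length, the TATA box letters TATAAA occur in 13.6% and the box CCAAT in 37.4%. The GC box letters GGGCGG occur in 35.9%, and TGTTTAC, a core of sites bound by FOXA factors, in 3.66%. The E-box CACGTG occurs in 7.17%, and the nuclear receptor half-site AGGTCA in 16.2%. Their absence says only that these letters are not in this window. The GENCODE transcript ENSMUST00000188305 is 1102 bases long with a GC content of 47.7%. Its longest reading frame has 74 codons, against a median of 58 over 9101 lincRNA transcripts, 31.9% of which have a longer one. No other GENCODE gene shares at least 90% identity with it over at least 100 bases. Only this spliced transcript was searched, against GENCODE transcripts, so copies of the rest of NONMMUT003114.2 were not looked for.

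The other 6 listed transcripts fall into 3 kinds. ENSMUST00000188305 and NONMMUT003113.2 (151138034 to 151144095, 2640 bases) share the annotated start, and the latter has both ends of the RefSeq gene. NONMMUT003115.2 (151140233 to 151143923, 2962 bases) and NONMMUT003116.2 (from 151142134, 1609 bases) begin further along, and NONMMUT003116.2 shares its end with NONMMUT003114.2. NONMMUT003111.2 (151133295 to 151155170, 911 bases) and NONMMUT003112.2 (151135520 to 151155212, 1939 bases) reach past the gene on both sides. Their far ends fall 76 and 34 bases short of the start of the minus-strand gene Gm36139. The strand and exons of the NONCODE transcripts were not used here. Without strand, reads of C730036E19Rik and of Gm36139 cannot be told apart, and no source used here says how the authors' tool divided reads among overlapping transcripts.

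**Figure D1:**
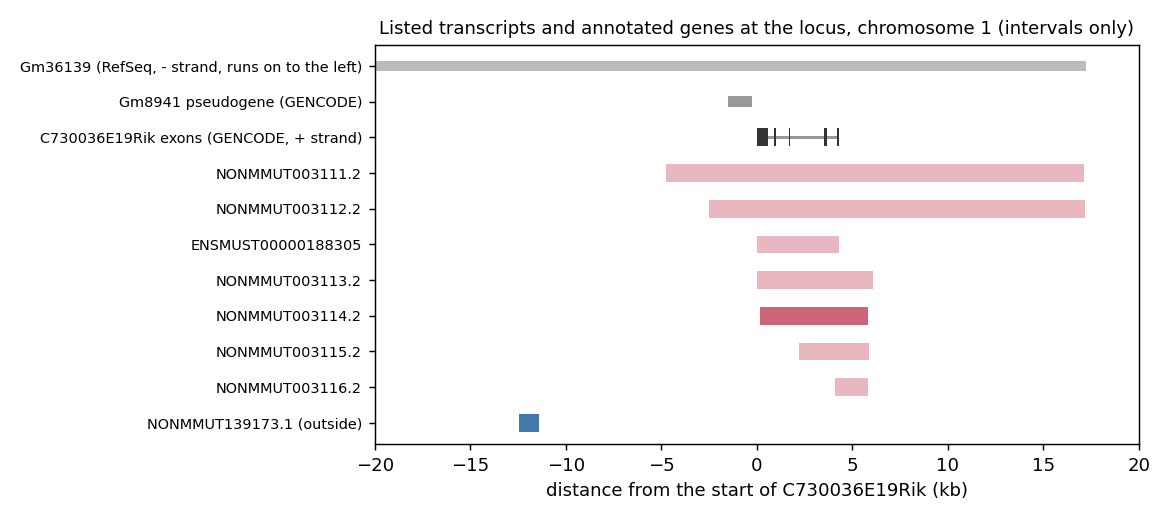
Intervals of the 7 listed transcripts (pink, NONMMUT003114.2 in dark pink), of the annotated genes (grey and black) and of NONMMUT139173.1 outside the locus (blue), along the distance in kb from the start of C730036E19Rik. Bars are whole intervals and black boxes are GENCODE exons. NONMMUT003111.2 and NONMMUT003112.2 run on to the start of Gm36139, while the other 5 transcripts lie within the RefSeq extent of C730036E19Rik.

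Totals of 17.2 to 31.1 M reads per library (M stands for mega) were recovered from the steps of the FPKM values. Alb, Apoa1, Fgb and Cyp2e1, the usual hepatocyte markers, have no listed transcript, so the tissue was read through listed transcripts on exons of other markers. Those of 6 of 10 hepatocyte markers summed to 62.7 to 135 FPKM per library, against 0.180 to 1.46 for 2 of 5 leukocyte markers. The largest part of the hepatocyte sum was Serpina1a, at 43.7 to 99.9 FPKM. The listed transcripts on exons of Apoa2 (0 to 0.742) and Ttr (0.0848 to 0.254) were as low as those of markers of other cell types. All these values belong to listed transcripts that overlap exons, and are not messenger RNA levels of the genes. Listed transcripts of 4 of 4 endothelial, 4 of 5 stellate and 1 of 4 cholangiocyte markers summed to at most 1.61 FPKM in any library. Of 4 adipocyte markers only Cidec, a lipid droplet gene that fatty liver also expresses, has listed transcripts, at 2.11 to 5.28 FPKM. The summed levels of each of these lists overlapped between the ordinary-feed and high-fat groups. Within the hepatocyte list only the listed transcripts of Cps1 did not overlap, at 0.998 to 5.39 FPKM on ordinary feed and 0.245 to 0.709 on high-fat feed. Of all features that reached 1 FPKM in 4 or more libraries, 17.3% lay wholly below ordinary feed on high-fat feed. High-fat replicate 4 stood apart, with 22.6% of its listed reads on ribosomal RNA against 8.80% to 16.1% in the other libraries. The titles of all 4 high-fat samples share a prefix (H7) whose meaning is not given, while each other group carries at least 2, so whatever it marks cannot be told apart from high-fat feed alone. Nothing in the labels ties libraries to cages or litters, and p-values reflect only the spread between these libraries.

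NONMMUT003114.2 was lowest on ordinary feed, highest on high-fat feed and in between in both drug groups. On ordinary feed it stood at 1.60, 2.69, 2.27 and 2.76 FPKM in replicates 1 to 4, from 140, 349, 241 and 281 reads. On high-fat feed it stood at 28.6, 10.3, 28.8 and 14.1 FPKM, from 3277, 1618, 3335 and 1569 reads. Every high-fat value was above every ordinary-feed value, and replicates 1 and 3 stood well above replicates 2 and 4 on high-fat feed. With resveratrol the values were 9.64, 9.67, 7.32 and 19.0 FPKM. With metformin they were 12.1, 15.8, 7.20 and 15.6 FPKM. All 8 drug values lay above the ordinary-feed group, and they overlapped with the high-fat group and with each other. With libraries scaled by median ratios, the high-fat values were 27.3, 10.9, 28.3 and 20.4 in replicates 1 to 4. Replicates 1 and 3 stayed the highest, while replicate 4 moved away from replicate 2 and closer to them.

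**Figure D2:**
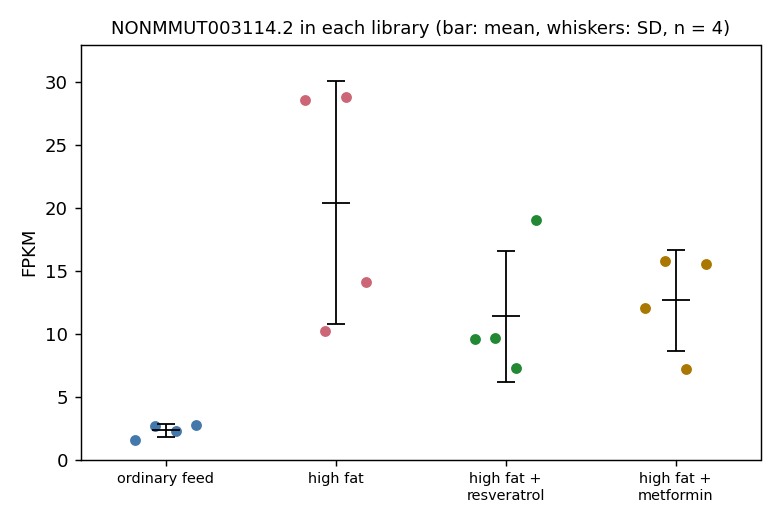
FPKM of NONMMUT003114.2 in each of the 16 libraries by group, with bars for the mean and whiskers for the SD (n = 4 per group). The ordinary-feed points sit between 1.60 and 2.76 and the high-fat points between 10.3 and 28.8, with no overlap. Points of both drug groups, from 7.20 to 19.0, overlap the lower high-fat points.

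The group means were 2.33 ± 0.530 FPKM on ordinary feed, 20.4 ± 9.65 on high-fat feed, 11.4 ± 5.20 with resveratrol and 12.7 ± 4.02 with metformin (n = 4 libraries each, ± SD). In order from the highest, the groups were high fat, metformin, resveratrol and ordinary feed. Neighbours in that order overlapped except the last pair, where the lowest resveratrol value, 7.32, stood above the highest ordinary-feed value, 2.76. The spread within each group was wider than counting error. The coefficient of variation was 47.2% on high-fat feed, 45.6% with resveratrol, 31.8% with metformin and 22.7% on ordinary feed, while counting error alone gives 1.73% to 8.45% per library. Even the shallowest value, 140 reads in ordinary-feed replicate 1, has an exact 95% Poisson interval of only 118 to 165 reads, which covers counting error only. In bulk liver, a change in the share of cells that hold the transcript and a change in its level per cell cannot be told apart.

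Because the high-fat and ordinary-feed values chose the transcript, its differences from these groups are descriptions with no test. On the log2(FPKM + 1) scale, which understates changes of low transcripts, high fat minus ordinary feed was 2.58 (SE 0.35), a ratio of group means of 8.78. Among 7413 tested features (those that reached 1 FPKM in 4 or more libraries), 1085 or 14.6% were called in that comparison in either direction with limma, and this transcript ranked 3 from the highest difference. In the drug groups the transcript also stood above ordinary feed, by 1.83 with resveratrol and 2.00 with metformin (SE 0.35 each), ranks 9 and 6. These 3 comparisons share the ordinary-feed libraries. The share of tested features whose first group lay wholly above the ordinary-feed group was 3.64% for high fat, 4.41% for resveratrol and 2.9% for metformin.

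Against high-fat feed alone the drug group means were lower by less than 1 SD of the high-fat libraries, 9.65 FPKM. Resveratrol minus high fat was -0.75 and metformin minus high fat -0.58 (SE 0.35 each), in comparisons that share the high-fat libraries. A resveratrol value exceeded a high-fat value in 2 of 16 pairs of libraries, and a metformin value in 5 of 16. In those comparisons limma called 0.0809% (6) and 0.027% (2) of the tested features. The median difference over all tested features was 0.13 for resveratrol minus high fat, 0.07 for metformin minus high fat and -0.16 for high fat minus ordinary feed, so the transcript's differences go against the general shift in all 3. With libraries scaled by median ratios, which brings those medians to about 0.00, the transcript gave 2.81 for high fat minus ordinary feed, -0.96 for resveratrol minus high fat and -0.70 for metformin minus high fat. Without high-fat replicate 4, these were 2.71, -0.87 and -0.71 on the original scale. Metformin minus high fat was -0.39 without high-fat replicate 1, -0.38 without high-fat replicate 3 and -0.36 without metformin replicate 3.

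The difference between the drug groups holds no value that chose the transcript, and it was tested, although its SE in the fit of 16 libraries also draws on the ordinary-feed and high-fat libraries. Resveratrol minus metformin was -0.16 (SE 0.35), with a 95% interval of -0.90 to 0.57 (limma, adjusted p = 0.950). Fitted on the resveratrol and metformin libraries alone, the difference was the same and limma gave an adjusted p of 0.903. The resveratrol value was the higher in 7 of 16 pairs of libraries. The interval leaves room for a difference of either sign. In the same comparison limma called 0 of 7413 features, or 0%, and 471 had an unadjusted p under 0.05. Of the 4 transcripts of the locus that passed the filter, 0 were called and 0 had an unadjusted p under 0.05.

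The 6 other transcripts had lower group means in FPKM, which is per length, than NONMMUT003114.2 in all 4 groups, and in all 6 the high-fat group had the highest mean and the ordinary-feed group the lowest. They overlap the chosen transcript, come from the libraries that chose it and may share its reads, so they are not independent support. The share of all features with this order is not given here. Summed over the 7 transcripts, the locus held 178 to 3936 reads per library. Per mega-read of the library, this came to 14.7 ± 3.92 on ordinary feed, 124 ± 55.4 on high-fat feed, 70.4 ± 31.3 with resveratrol and 75.3 ± 23.8 with metformin (n = 4 libraries each, ± SD). If each read was counted once, this sum does not depend on how reads were divided among the 7. Its ordinary-feed values, 10.3 to 19.2, lay below all others. NONMMUT003114.2 took 70.5% to 91.3% of the locus reads in every library, so the sum largely repeats the values that chose it.

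Of the models that begin at the annotated start, NONMMUT003113.2 stood at 0.132, 0.221, 0.216 and 0 FPKM on ordinary feed and at 1.70, 0.877, 1.71 and 0 on high-fat feed. It was listed at 0 in replicate 4 of each of these groups and in no other library. With resveratrol it ranged from 0.627 to 1.21 and with metformin from 0.641 to 1.03 FPKM, both wholly above ordinary feed. The same 2 libraries gave ENSMUST00000188305, which shares that start, its highest shares of the locus reads, 3.29% in ordinary-feed replicate 4 and 2.04% in high-fat replicate 4. Together these 2 models held 6 to 15 reads on ordinary feed and 35 to 121 on high-fat feed. ENSMUST00000188305 alone was listed at 0 in 7 of 16 libraries and reached 1.45 FPKM at most.

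Of the models that begin within the gene, NONMMUT003116.2 differed most between libraries. It stood at 0.360, 0.775, 0.118 and 0.463 FPKM on ordinary feed and at 6.06, 9.87, 4.02 and 0.595 on high-fat feed. High-fat replicate 4, with 21 reads, fell into the ordinary-feed range, while replicate 2, with 494 reads, was the highest of all libraries and close to NONMMUT003114.2 in the same library, at 10.3 FPKM. In that replicate the transcript took 21.5% of the locus reads, and NONMMUT003114.2 its lowest share. With resveratrol it ranged from 0.299 to 4.78 and with metformin from 0.396 to 3.30 FPKM, and both groups overlapped ordinary feed and high fat. NONMMUT003115.2 stood at 3.86, 0.781, 4.20 and 0.846 FPKM on high-fat feed, high in the same 2 libraries as NONMMUT003114.2. On ordinary feed it stood at 0.372, 1.09, 0.145 and 0.335, so the groups overlapped.

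The models that reach past the gene were low in all groups. NONMMUT003112.2 had a mean of 0.153 ± 0.0585 FPKM on ordinary feed and 0.598 ± 0.302 on high-fat feed (SD, n = 4). NONMMUT003111.2 was listed at 0 in 5 libraries, 3 of them on ordinary feed, and averaged 0.260 ± 0.0687 FPKM on high-fat feed. In both, as in NONMMUT003114.2, every high-fat value lay above every ordinary-feed value, while in the other 4 the groups overlapped. Among tested features, 3.64% lay wholly above ordinary feed on high-fat feed, but NONMMUT003111.2 and NONMMUT003112.2 were not tested. Both rest on few reads. NONMMUT003112.2 had 3 to 11 reads on ordinary feed and 17 to 41 on high-fat feed, and NONMMUT003111.2 had 0 to 2 and 4 to 7. Neither of them reached the filter, nor did ENSMUST00000188305, so 4 of 7 were tested.

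**Figure D3:**
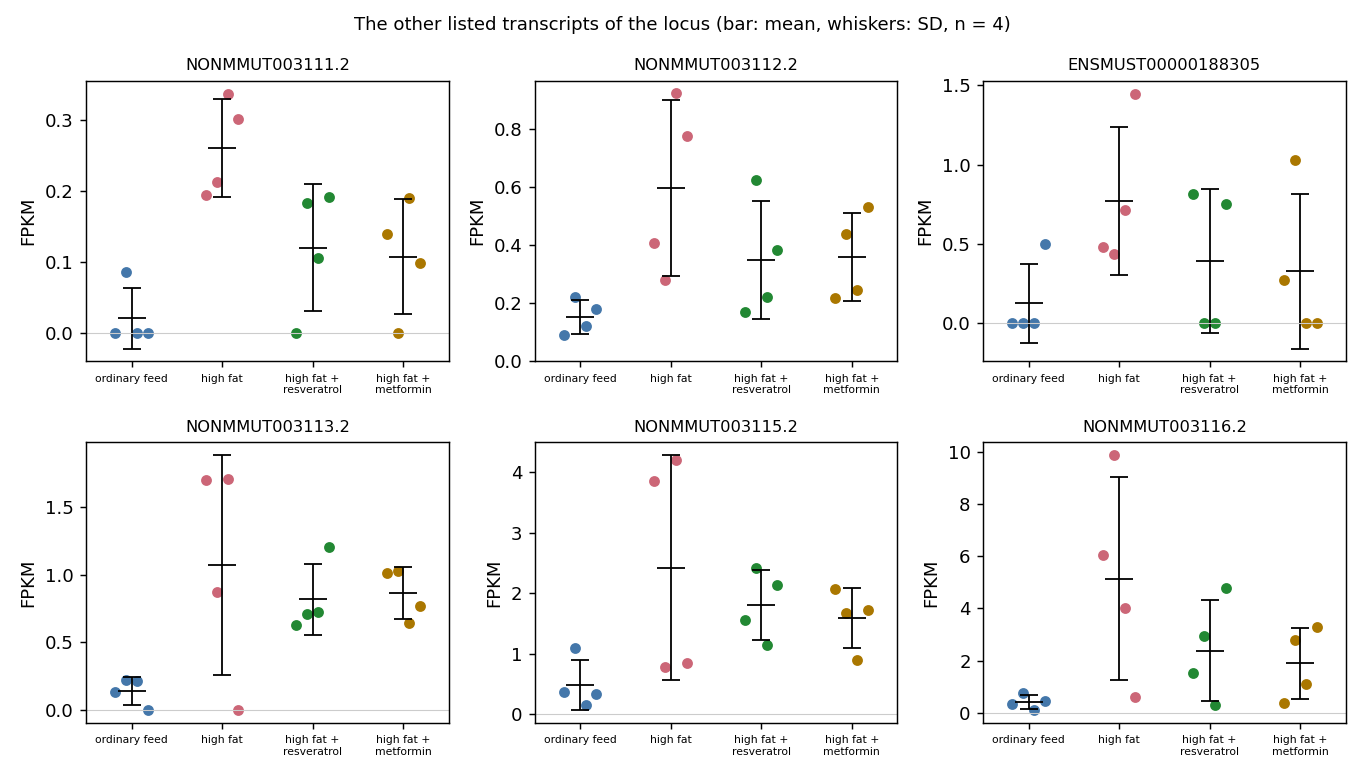
FPKM of the other 6 transcripts of the locus in each library by group, each panel on its own scale, with bars for the mean and whiskers for the SD (n = 4 per group). The highest mean is that of high-fat feed and the lowest that of ordinary feed in every panel. High-fat replicate 4 lies at 0 in NONMMUT003113.2 and at 0.595 in NONMMUT003116.2.

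For the 3 tested ones the descriptive difference of high fat minus ordinary feed was 0.76 (SE 0.25) for NONMMUT003113.2, 1.06 (SE 0.33) for NONMMUT003115.2 and 1.82 (SE 0.55) for NONMMUT003116.2. These depend on the pseudocount, and with 0.1 in place of 1 they were 1.77, 1.97 and 2.95. Resveratrol minus metformin was -0.04 (SE 0.25, limma adjusted p = 0.989) for NONMMUT003113.2, 0.12 (SE 0.33, adjusted p = 0.971) for NONMMUT003115.2 and 0.16 (SE 0.55, adjusted p = 0.979) for NONMMUT003116.2. None passed the test. Over the 16 libraries, Pearson's r with NONMMUT003114.2 was 0.803, 0.849 and 0.691 in the same order. As deviations from the group means it was 0.603, 0.780 and 0.388. These transcripts share the library and may share reads, so the values are descriptions.

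**Figure D4:**
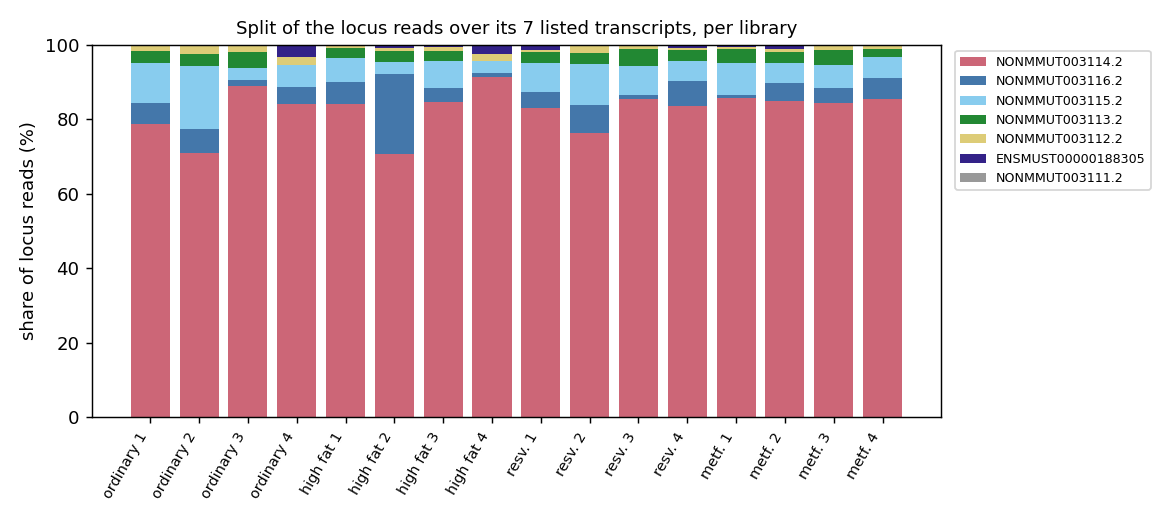
Share of the reads of the locus (%) that each of its 7 transcripts took in each library, stacked to 100%. NONMMUT003114.2 takes between 70.5% and 91.3%, and the share of NONMMUT003116.2 in high-fat replicate 2, 21.5%, stands out.

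Beyond the locus, 24 features are listed within 500 kb, 2 before it and 22 after it, and 20 of them stay below 1 FPKM in every library. The other 4 were tested, and limma called 2 of them in high fat minus ordinary feed, where it called 14.6% of all tested features. One was higher on high-fat feed and the other lower. None of the 4 was called for either drug against high fat or between the drugs. At an unadjusted p under 0.05, only Gm37893 passed there, in resveratrol minus high fat. The closest of all, NONMMUT139173.1 (chromosome 1, 151125573 to 151126624), lies 11.561 kb before the stretch, in no GENCODE gene and within RefSeq's Gm36139. It stood at 0.276, 0.741, 0.724 and 0.708 FPKM on ordinary feed, from 5, 20, 16 and 15 reads. On high-fat feed it stood at 6.04, 2.11, 3.74 and 1.95 FPKM, from 144, 69, 90 and 45 reads. The 2 highest were again high-fat replicates 1 and 3, and all 4 lay above ordinary feed.

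NONMMUT139173.1 rose from 0.612 ± 0.225 to 3.46 ± 1.90 FPKM (SD, n = 4 each), a log2 change of 1.39 (SE 0.24, limma adjusted p = 0.00437), or 2.25 with a pseudocount of 0.1. All 4 ordinary-feed values lay below 1 FPKM, so NONMMUT139173.1 passed the filter only through high-fat-fed libraries. With the filter dropped, limma gave an adjusted p of 0.0199. This difference comes from the same libraries that chose NONMMUT003114.2, so it is not independent support for that transcript's difference. The drug groups stood in between, at 2.18 ± 0.693 FPKM with resveratrol and 2.21 ± 0.366 with metformin. Their differences from high fat were -0.42 (SE 0.24, adjusted p = 0.388) and -0.39 (SE 0.24, adjusted p = 0.724), and the drugs differed by -0.03 (SE 0.24, adjusted p = 0.989, limma). Without high-fat replicate 1, the highest library, the differences from high fat shrank to -0.17 for resveratrol and -0.14 for metformin. Against ordinary feed the differences were 0.97 (SE 0.24, adjusted p = 0.0955) and 1.00 (SE 0.24, adjusted p = 0.0643, limma), with no overlap in either. Pearson's r with NONMMUT003114.2 over the 16 libraries was 0.925 and Spearman's rho 0.879. Since the ordinary-feed libraries stand apart in both, r was also taken on deviations from the group means, where it was 0.690.

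**Figure D5:**
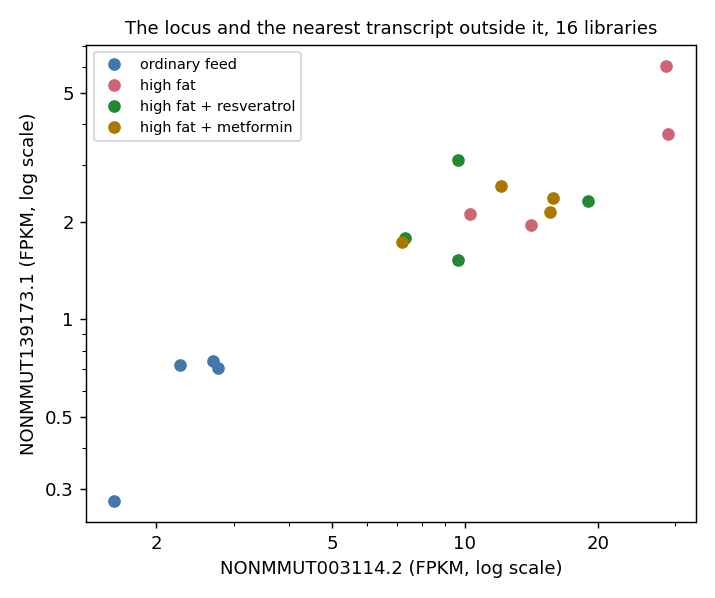
FPKM of NONMMUT139173.1 against FPKM of NONMMUT003114.2 in the 16 libraries, both on log axes, coloured by group. The ordinary-feed points form a separate cluster at the lower left, below 0.741 and 2.76 FPKM. High-fat replicates 1 and 3 are at the upper right, and the drug groups overlap with the other two high-fat points.

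The other 3 tested neighbours lie at coding genes more than 190 kb after the stretch. Gm37893 (ENSMUSG00000103928, chromosome 1, 151445305 to 151447741), in the tRNA methyltransferase gene Trmt1l, stood at 3.12, 2.70, 3.65 and 2.77 FPKM on ordinary feed and at 2.35, 1.99, 2.24 and 1.27 on high-fat feed. The groups do not overlap, and 17.3% of tested features likewise lay wholly below ordinary feed on high-fat feed. In this comparison limma called 875 tested features lower and 210 higher. Gm37893 fell by 0.46 on the log2 scale (SE 0.14, limma adjusted p = 0.0384). That call was lost with median-ratio scaling (-0.27, adjusted p = 0.127), with the low-value filter dropped (adjusted p = 0.169) and without high-fat replicate 4, among others. The drug groups averaged 2.77 ± 0.450 FPKM with resveratrol and 2.37 ± 0.383 with metformin, and neither differed from high fat by the test (adjusted p = 0.243 and 0.765, limma). Gm10138, at Ivns1abp, gave 0.28 (SE 0.19, adjusted p = 0.334) for high fat minus ordinary feed. Gm36527, in Rnf2, which encodes a ubiquitin ligase of the Polycomb complex PRC1, gave -0.16 (SE 0.12, adjusted p = 0.351, limma).

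Features outside that window were ranked by the Pearson correlation of their log2(FPKM + 1) values with those of NONMMUT003114.2 over the 16 libraries. Of 7405 features compared, 2 reached a Pearson r of 0.9 and 36 reached 0.8. The highest was NONMMUT031869.2, in exons of Stard4, which encodes a sterol carrier protein, with r = 0.921 and rho = 0.903. It averaged 8.35 ± 1.45 FPKM on ordinary feed, 22.1 ± 3.65 on high-fat feed, 15.4 ± 3.54 with resveratrol and 22.3 ± 5.54 with metformin. Its metformin mean was thus close to its high-fat mean, while that of NONMMUT003114.2 was 12.7 against 20.4 FPKM, a difference in pattern that was not tested. NONMMUT067580.2, at the sulfotransferase gene Sult5a1 and the overlapping Gm20388, followed with r = 0.917 and rho = 0.918. It averaged 0.367 ± 0.0881 FPKM on ordinary feed, 1.70 ± 0.538 on high-fat feed, 1.21 ± 0.526 with resveratrol and 1.23 ± 0.481 with metformin.

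The next were exonic features of Gda (guanine deaminase, NONMMUT034143.2, r = 0.899), Creb3l2 (a transcription factor held in the endoplasmic reticulum, NONMMUT056402.2, r = 0.891) and Dgat2 (an enzyme of triglyceride synthesis, NONMMUT062889.2, r = 0.889). The Dgat2 feature averaged 112 ± 7.34 FPKM on ordinary feed and 199 ± 19.7 on high-fat feed. Without strand, a listed transcript and the coding gene it overlaps cannot be told apart. These likenesses include the gap between ordinary feed and the other groups, which chose NONMMUT003114.2, and carry no test.

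When the group means were removed, other features came first. Gm17024, at Ifrd1, had the highest r of deviations, 0.859, while its r over the 16 libraries was -0.14. A pair at Aacs, which encodes an enzyme that activates acetoacetate for lipid synthesis, followed. These were NONMMUT149180.1 (r = 0.843), 5.234 kb from the gene, and NONMMUT119418.1 (r = 0.842), in its exons. NONMMUT119418.1 averaged 0.313 ± 0.299 FPKM on ordinary feed and 2.78 ± 1.23 on high-fat feed, 0.466 ± 0.586 with resveratrol and 0.513 ± 0.298 with metformin. NONMMUT145205.1, 0.067 kb from Man2a1 (a Golgi mannosidase), and NONMMUT002542.2, at AA986860, had r of 0.839 and 0.836. None of these 5 was among the 5 most alike over all 16 libraries. They were picked as the highest of 7405 features compared, and their r values carry no test.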

How the data were processed

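FPKM values were computed and deposited by the authors, 1 table per library. Bowtie 0.12.2, Cufflinks 2.1.1 and GRCm38 are named, per the submitters' processing notes, with no role or order. Which annotation release and filters were used, and how strand was handled, is not stated in those notes. Reads and library totals were recovered from the steps of the FPKM values, since at least 99.998% of each library's values came out as whole reads, within 0.05 of a read. No libraries were duplicates, since any pair differed in at least 38916 listed values.

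Ensembl transcripts were summed per gene, giving 49988 features, and the 7413 that reached 1 FPKM in 4 or more libraries were tested with limma 3.58.1 (R 4.3.3) on log2(FPKM + 1), with a mean-variance trend, in 1 fit of 16 libraries. Benjamini-Hochberg adjustment covered all 7413, and features under 0.05 were called. Replicates were numbered in sample order.

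The text names every listed transcript overlapping the stretch, every tested feature within 500 kb and the 5 features most alike by each measure. These members and lists were chosen with earlier results of these data known. Alternatives were a pseudocount of 0.1, no filter, a filter at 0.5 FPKM, median-ratio scaling, only the 2 groups compared, each library left out and, chosen after seeing the data, scaling to listed reads outside 7SL and ribosomal RNA.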

Additional observations from a re-analysis of the deposited data

Results flagged for a closer look

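Single libraries lay far from the other 3 of their group in 3 of 44 groups of values examined at the locus and its neighbours. Chance gives about 1 in 20 for independent, normally distributed values, a rate that does not hold for values at 0 or overlapping transcripts. Where 3 values are 0, any other value is flagged. ENSMUST00000188305 was listed at 0.496 FPKM in ordinary-feed replicate 4 and at 0 in the other 3. NONMMUT003111.2 was listed at 0.0856 FPKM in ordinary-feed replicate 2 and at 0 in the other 3. NONMMUT139173.1 was low in ordinary-feed replicate 1, at 0.276 FPKM from 5 reads, against 0.708 for the nearest other.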

How the results depend on the processing

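The differences of NONMMUT003114.2 kept their sign under every alternative run, except resveratrol minus metformin, which ranged from -0.42 to 0.00035 with 1 library left out (limma adjusted p 0.820 to 1.00 over 22 alternatives). For the differences from ordinary feed, leaving out 1 library could not change the sign, since those groups do not overlap. A library outside the 2 groups compared does not enter their difference. With each library left out in turn, high fat minus ordinary feed ranged from 2.38 to 2.85, resveratrol minus high fat from -1.02 to -0.55 and metformin minus high fat from -0.85 to -0.36. A pseudocount of 0.1 gave 2.97, -0.79 and -0.62.

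Among neighbours, the 2 calls between high fat and ordinary feed became 1 with no filter, with median-ratio scaling, with scaling to listed reads and with only the 2 groups fitted, and ranged from 1 to 2 with 1 library left out. The call lost was that of Gm37893, also lost with the filter at 0.5 FPKM (adjusted p = 0.0547), where NONMMUT003130.2 in Swt1 entered and was called in its place. This made 11 of 22 alternatives, and the cause was not tested. It was lost when any 1 of the 4 ordinary-feed replicates was left out, and without high-fat replicate 2 or 4. NONMMUT139173.1 was called in all 22 (adjusted p 0.00108 to 0.0270). The drug comparisons of neighbours stayed at 0 calls. The descriptive drug differences of NONMMUT003113.2 and NONMMUT003115.2 from high fat are small and changed sign in some alternatives, such as without high-fat replicate 3. No paired analysis was possible because the labels give no replicate numbers. Depth limits the low transcripts most, since NONMMUT139173.1 rests on 5 to 20 reads per ordinary-feed library.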
